A study of Mus musculus with 23 samples.

Results

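The genes described here were 10 genes that astrocytes of the rodent brain express strongly: Slc1a2, Slc1a3, Glul, Aqp4, Gfap, Aldh1l1, Gja1, Gjb6, Kcnj10 and S100b. They were chosen by name as known astrocyte genes, with earlier results of these data known, and all 10 were present among the 19733 genes of the table and passed the filter on low values. Their levels were measured by RNA sequencing of bulk hippocampus from 23 male C57BL/6J mice, of which 9 were Ctrl, 7 EtOH and 7 EtOH-UA mice. Mice were wild type, were acquired at 6 weeks of age and were kept on a liquid diet for 16 weeks, followed by 1 week of behavioral tests. Ctrl mice received the AIN93M control liquid diet and the vehicle, 0.05% CMC-Na, by gavage. EtOH mice received the ethanol liquid diet with the same vehicle, and EtOH-UA mice received the ethanol liquid diet with urolithin A (UA), a gut bacterial metabolite of ellagitannins, at 200 mg/kg/day by gavage. No group received UA without ethanol, so UA was compared only in mice that also drank ethanol. Each library came from 1 mouse, of 10 mice per group in the experiment.

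Astrocytes are glial cells that surround synapses and blood vessels. They take up glutamate released by neurons and convert it to glutamine, buffer extracellular potassium, move water at endfeet on capillaries, and are joined to each other by gap junctions built of connexins. After injury or inflammation they can become reactive, with more of the intermediate filament protein GFAP. The 10 genes cover each of these roles. In bulk tissue, fewer astrocytes and less RNA per astrocyte cannot be told apart.

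Values were given as FPKM, the number of sequenced fragments of a gene divided by its transcript length and by the size of the library, so levels of different genes can be compared within a library. Summed FPKM per library ranged from 327896 to 404609. The highest sum was that of 1 EtOH-UA mouse, and the same library had the lowest slope of expression on transcript length (-0.27, against -0.16 to 0.09 in the other 22), which means that long transcripts read low in it relative to short ones. Differences of the 10 genes that it moved most are given with and without it. Sequencing depth was not stated. From the steps between low values of 31 genes it was estimated at 16.6 fragments per kilobase of transcript at 1 FPKM (quartiles 15.2 and 17.1), so that the mean level of the least covered gene, Gjb6, rested on about 862 fragments and that of the best covered, Slc1a2, on about 62700. Counting error at this depth was 0.399% to 3.41% of the mean, below the spread between mice for every one of the 10 genes.

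All 10 genes were detected in every mouse, and most neighbours in the order of their levels kept it in every mouse. Mean FPKM over the 23 mice was 530.6 for Glul, 325.8 for Slc1a2, 170.3 for Slc1a3, 111.1 for Gfap, 65.4 for Gja1, 49.0 for S100b, 26.6 for Kcnj10, 24.67 for Gjb6, 24.61 for Aqp4 and 13.98 for Aldh1l1. Glul ranked 35th of all genes by mean level and Aldh1l1 ranked 5428th. In 23 of 23 mice Glul stood above Slc1a2, Slc1a2 above Slc1a3, Slc1a3 above Gfap, Gfap above Gja1, Gja1 above S100b, S100b above Kcnj10, and Aqp4 above Aldh1l1. The exceptions lay among Kcnj10, Gjb6 and Aqp4. Kcnj10 exceeded Gjb6 in 18 of 23 mice, and Gjb6 exceeded Aqp4 in 13 of 23, and the ranges of these neighbours over the 23 mice overlapped. Differences between neighbours were not tested.

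Spread between mice of 1 group differed among the genes. Glul had a residual SD of 0.09 on the log2 scale, and only 9.25% of the 15985 tested genes had a smaller one. Slc1a3 followed with 0.10 (12.2% of genes smaller) and Gja1 with 0.13 (24.0%). At the other end stood Aqp4 with 0.23 (63.0% of genes smaller) and Kcnj10 with 0.23 (61.4%). The highest mouse exceeded the lowest by 1.3-fold for Glul and by 1.96-fold for Kcnj10.

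**Figure D1:**
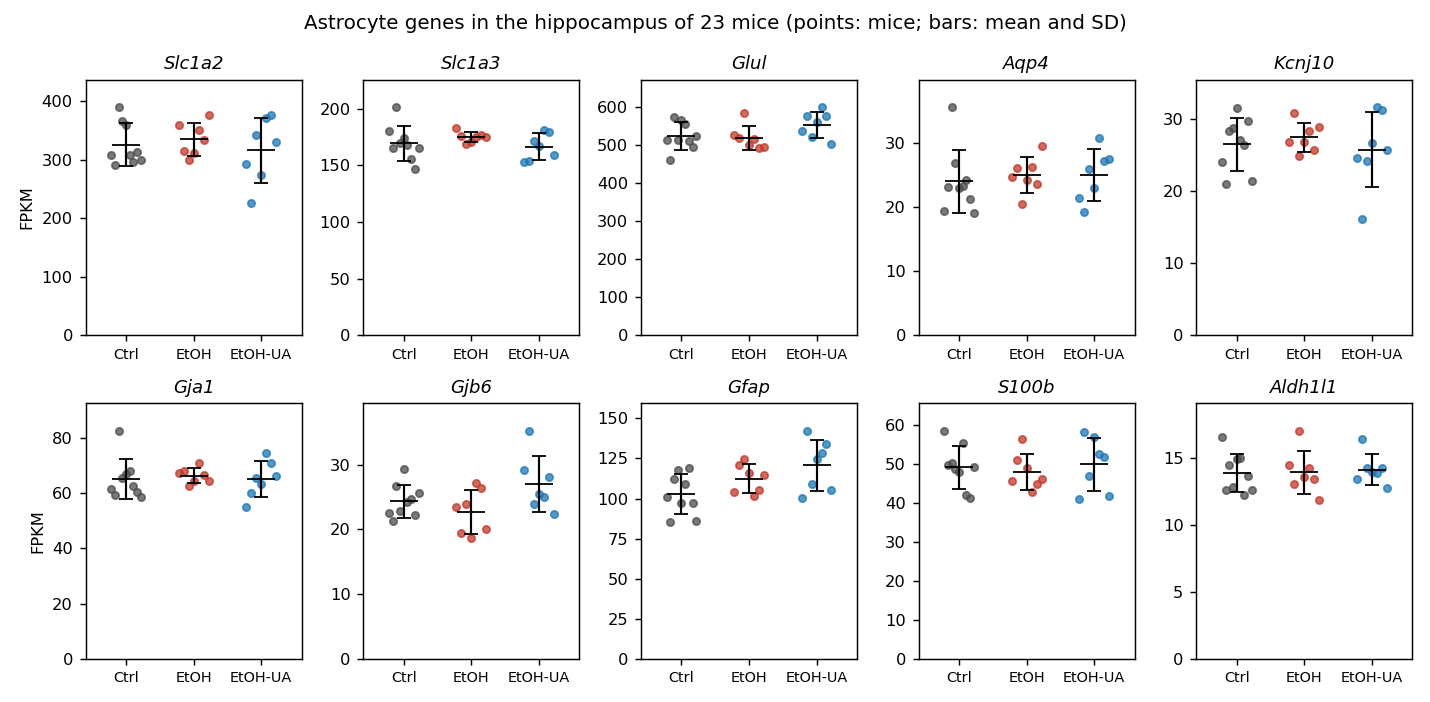
FPKM of the 10 astrocyte genes (vertical axes, linear and starting at 0) in each of the 9 Ctrl, 7 EtOH and 7 EtOH-UA mice, with horizontal bars for the group mean and error bars for the SD. The 3 groups overlap for every gene; the clearest shifts are Gjb6 between EtOH (mean 22.7) and EtOH-UA mice (27.0) and Gfap between Ctrl (103) and EtOH-UA mice (121).

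Promoter sequences are shown for 4 genes: Slc1a3 and Gja1, whose levels were correlated between mice as described further on, and Gfap and Gjb6, the 2 genes with an unadjusted limma p under 0.05 in a comparison. They are the 250 bases before the annotated start in RefSeq (GRCm38.p6), 5′ to 3′ on the strand of the gene, and 9 of the 10 genes had an entry. The entry of Slc1a2 belonged to a start inside the gene interval given further on and is not shown. The intervals are chr15:8710808-8711057 on the minus strand for Slc1a3, chr10:56377050-56377299 on the plus strand for Gja1, chr11:102897201-102897450 on the minus strand for Gfap, and chr14:57133612-57133861 on the minus strand for Gjb6. Capitals mark matches, on either strand, to any of 6 motifs, which are the TATA box TATAAA, the CCAAT box, the NFI half-site TTGGC, the STAT motif TTCNNNGAA, the AP-1 motif TGANTCA and the SOX motif AACAAT.
Slc1a3: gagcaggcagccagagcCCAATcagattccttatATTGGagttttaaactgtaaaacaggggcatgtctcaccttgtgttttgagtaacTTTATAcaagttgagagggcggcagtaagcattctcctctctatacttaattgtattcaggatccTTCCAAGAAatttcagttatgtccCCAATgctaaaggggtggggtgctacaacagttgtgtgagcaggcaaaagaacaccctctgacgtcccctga
Gja1: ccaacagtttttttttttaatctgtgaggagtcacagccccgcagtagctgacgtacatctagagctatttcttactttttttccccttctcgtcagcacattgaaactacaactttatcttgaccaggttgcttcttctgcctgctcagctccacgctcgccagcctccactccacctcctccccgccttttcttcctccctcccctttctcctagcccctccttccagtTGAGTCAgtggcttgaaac
Gfap: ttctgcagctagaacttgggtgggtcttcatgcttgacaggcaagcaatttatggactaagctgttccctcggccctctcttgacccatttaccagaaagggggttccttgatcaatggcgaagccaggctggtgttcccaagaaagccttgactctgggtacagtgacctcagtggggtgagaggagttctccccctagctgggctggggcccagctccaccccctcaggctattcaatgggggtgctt
Gjb6: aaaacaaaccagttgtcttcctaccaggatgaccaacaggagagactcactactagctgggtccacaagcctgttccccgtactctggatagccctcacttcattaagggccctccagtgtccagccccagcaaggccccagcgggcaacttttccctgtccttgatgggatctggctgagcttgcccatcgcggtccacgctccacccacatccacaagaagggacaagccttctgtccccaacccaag
The promoter of Slc1a3 held a TATAAA match, a STAT match and 3 CCAAT matches, and that of Gja1 a single AP-1 match 19 bases before the start. Neither Gfap nor Gjb6 had a match to any of the 6 motifs in this window, and Slc1a3 and Gja1 shared none. Among all 32851 promoter windows of the same length, CCAAT was found in 33.8%, the NFI half-site in 41.5%, TATAAA in 12.4%, SOX in 9.42%, STAT in 7.02% and AP-1 in 6.75%. A match describes letters in a window and was not tested as a binding site.

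To ask whether chronic ethanol and UA shifted astrocyte genes, each group was compared with each other group by limma on log2(FPKM + 0.1), with p-values adjusted over all 15985 tested genes. None of the 10 genes passed an adjusted p of 0.05 in any of the 3 comparisons, and neither did any other gene: limma called 0 genes (0%) in EtOH against Ctrl mice, 0 (0%) in EtOH-UA against EtOH mice and 0 (0%) in EtOH-UA against Ctrl mice. At an unadjusted limma p under 0.05 there were 487 genes (3.05%), 523 genes (3.27%) and 492 genes (3.08%) in these 3 comparisons. Of the 10 astrocyte genes, 0, 1 and 1 were among them. The ranges of 2 groups did not overlap for 1 gene (0.00626%), 4 genes (0.025%) and 2 genes (0.0125%), and for none of the 10 astrocyte genes. Comparisons with a shared group are not independent of each other. The log2 fold changes of the 10 genes ran from -0.11 to 0.13 in EtOH against Ctrl mice, with 7 higher and 3 lower and a median of 0.04 (all tested genes -0.0030). For EtOH-UA against EtOH mice they ran from -0.12 to 0.25, with 5 in each direction and a median of 0.0077 (all genes 0.0033). The range for EtOH-UA against Ctrl mice was -0.06 to 0.23, with 7 higher and 3 lower and a median of 0.02 (all genes 0.0024). Each 95% interval holds for 1 gene in 1 comparison, under this fit and without other scalings or weights. No interval of any of the 10 genes reached below 0.814-fold or above 1.231-fold for EtOH against Ctrl, below 0.783-fold or above 1.365-fold for EtOH-UA against EtOH, or below 0.825-fold or above 1.316-fold for EtOH-UA against Ctrl.

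**Figure D2:**
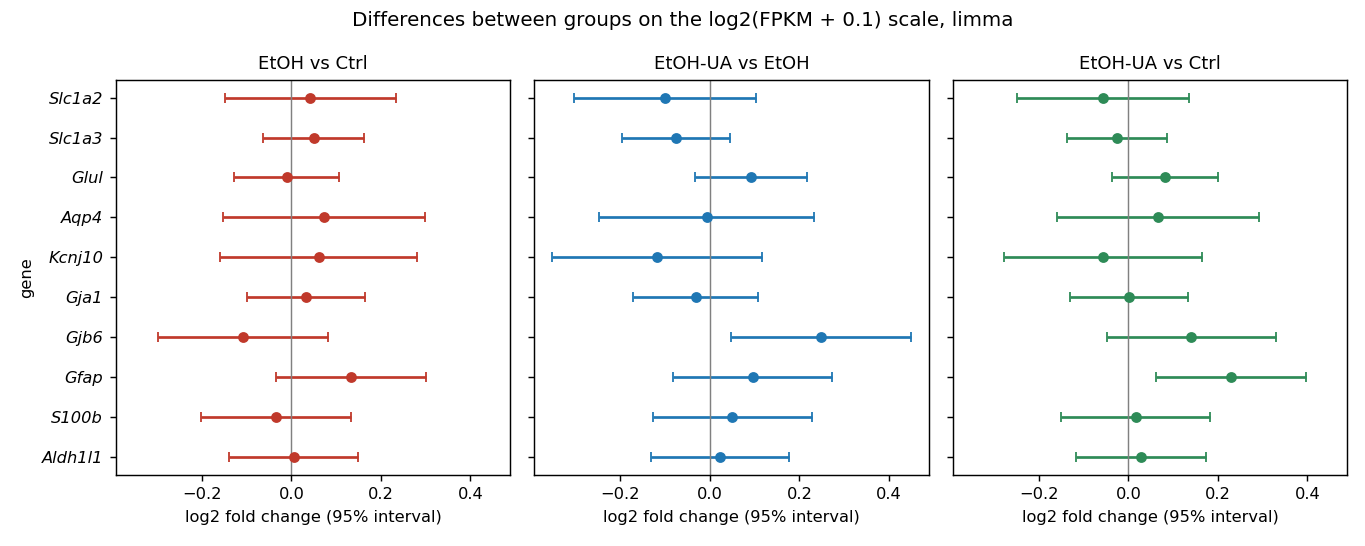
Log2 fold change of each gene (horizontal axis, log2(FPKM + 0.1) scale) with its 95% interval from limma, in panels for the 3 comparisons. Of the 30 intervals, those of Gjb6 in EtOH-UA against EtOH mice (0.05 to 0.45) and Gfap in EtOH-UA against Ctrl mice (0.06 to 0.40) do not include 0; neither gene passed an adjusted p of 0.05.

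The genes of glutamate uptake and conversion had overlapping ranges in the 3 groups. Slc1a2 (NCBI gene 20511, chr2:102658239-102790784 in GRCm38) encodes GLT-1, the main glutamate transporter of the forebrain. Ctrl mice had 290.94 to 390.18 FPKM with a median of 308.41, EtOH mice 299.07 to 376.98 with a median of 334.25, and EtOH-UA mice 225.49 to 377.22 with a median of 330.11. The lowest value of all 23 was that of the EtOH-UA library with the highest summed FPKM. Group means were 326 ± 36.3 (SD, n = 9), 335 ± 28.5 (n = 7) and 316 ± 55.1 (n = 7). The log2 fold change was 0.04 ± 0.09 (SE) for EtOH against Ctrl, -0.10 ± 0.10 for EtOH-UA against EtOH and -0.06 ± 0.09 for EtOH-UA against Ctrl, and the exact permutation p-values were 0.553, 0.402 and 0.608. Without that library the last 2 differences were -0.02 (exact permutation p = 0.802) and 0.02 (exact p = 0.812).

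Slc1a3 (gene 20512, chr15:8634124-8710807, minus strand) encodes GLAST, the second glutamate transporter of astrocytes. Values spanned 146.4 to 201.46 FPKM in the Ctrl group with a median of 168.08, 168.9 to 183.05 in the EtOH group with a median of 175.07, and 152.58 to 181.34 in the EtOH-UA group with a median of 167.25. The 7 EtOH mice lay close together (SD 4.57, against 15.5 in Ctrl and 11.8 in EtOH-UA mice), and all 7 stood above the Ctrl median. The difference between EtOH-UA and EtOH mice was -0.08 ± 0.06 (SE) on the log2 scale, with an exact permutation p of 0.0979, and 5 of 7 EtOH-UA mice lay below the EtOH median. Against Ctrl mice, the log2 fold change of EtOH mice was 0.05 ± 0.05 (exact permutation p = 0.350).

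Glul (gene 14645, chr1:153899929-153909723) encodes glutamine synthetase, which converts glutamate to glutamine. The lowest, median and highest FPKM were 458.78, 513.46 and 573.54 in Ctrl mice, 492.62, 514.38 and 584.02 in EtOH mice, and 502.05, 558.36 and 598.77 in EtOH-UA mice. The means were 523 ± 36.5, 519 ± 31.5 and 553 ± 34.3 (SD). EtOH-UA mice were higher than EtOH mice by 0.09 ± 0.06 (SE) on the log2 scale, with 6 of 7 above the EtOH median, an exact permutation p of 0.0740 and a limma adjusted p of 0.90. This difference was 0.041 (exact permutation p = 0.412) after rescaling to a common sum and 0.015 (exact p = 0.827) after quantile normalization. Leaving out 1 mouse in turn gave exact permutation p-values from 0.014, without the EtOH mouse with the highest Glul, to 0.141. Ctrl and EtOH mice differed by -0.01 (exact permutation p = 0.835).

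No difference between groups was detectable in the ratio of transporter to transporter. Slc1a2 was 1.92 ± 0.165 times Slc1a3 in Ctrl mice, 1.91 ± 0.138 times in EtOH mice and 1.89 ± 0.243 times in EtOH-UA mice (mean of within-library ratios, SD). Slc1a2 was 0.624 ± 0.0521 of Glul in Ctrl mice, 0.649 ± 0.0787 in EtOH mice and 0.574 ± 0.103 in EtOH-UA mice. The difference in the latter ratio between EtOH-UA and EtOH mice was -0.19 on the log2 scale (exact permutation p = 0.163), and -0.10 (exact p = 0.323) without the EtOH-UA library of the highest summed FPKM. A ratio within a library does not depend on how the library was scaled. It can depend on the slope of expression on transcript length where the 2 transcripts differ in length, as Slc1a2 (11595 bases) and Glul (2792 bases) do. No ratio was adjusted for this slope. In all, 18 ratio tests were run over 6 pairs of genes, and the smallest adjusted p over the 18 was 0.596.

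Aqp4 (gene 11829, chr18:15389394-15410982) encodes the water channel of perivascular endfeet. The lowest, median and highest FPKM were 19.08, 23.2 and 35.63 in the Ctrl group, 20.46, 24.63 and 29.5 in the EtOH group, and 19.16, 26.03 and 30.76 in the EtOH-UA group. The highest and the lowest values of all 23 mice were both in the Ctrl group. The log2 fold change was 0.07 ± 0.11 (SE) for EtOH against Ctrl, -0.0072 ± 0.12 for EtOH-UA against EtOH and 0.07 ± 0.11 for EtOH-UA against Ctrl. Without the EtOH-UA library of the highest summed FPKM, which held the lowest EtOH-UA value, the last 2 were 0.05 (exact permutation p = 0.582) and 0.13 (exact p = 0.340).

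Kcnj10 (gene 16513, chr1:172341210-172374085) encodes the inward rectifier Kir4.1, through which astrocytes take up potassium. Ctrl mice had 21.05 to 31.54 FPKM with a median of 27.14, EtOH mice 24.86 to 30.84 with a median of 26.82, and EtOH-UA mice 16.17 to 31.68 with a median of 25.73. The value of 16.17 again belonged to the EtOH-UA library with the highest summed FPKM, and the next lowest EtOH-UA mouse had 24.18. With all mice the log2 fold change of EtOH-UA against EtOH was -0.12 ± 0.11 (SE, exact permutation p = 0.443), and without that library it was -0.01 (exact p = 0.883). Against Ctrl mice, EtOH-UA mice differed by -0.06 with it (exact permutation p = 0.689) and by 0.05 without it (exact p = 0.628). Aqp4 was 0.913 ± 0.173 times Kcnj10 in Ctrl, 0.909 ± 0.0639 times in EtOH and 0.986 ± 0.127 times in EtOH-UA mice, and no difference in this ratio had an exact permutation p below 0.185.

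The 2 astrocyte connexins were measured side by side. Gja1 (gene 14609, chr10:56377300-56390419) encodes connexin 43, and Gjb6 (gene 14623, chr14:57123301-57133611, minus strand) encodes connexin 30. For Gja1 the lowest, median and highest FPKM were 58.72, 62.69 and 82.55 in Ctrl mice, 62.67, 66.47 and 70.85 in EtOH mice, and 55.00, 65.29 and 74.39 in EtOH-UA mice. Its means of 65.06, 66.24 and 65.03 FPKM differed by at most 0.03 on the log2 scale. For Gjb6, the lowest, median and highest FPKM were 21.28, 24.27 and 29.28 in the 9 Ctrl mice and 18.59, 23.44 and 27.17 in the 7 EtOH mice. The 7 EtOH-UA mice were at 22.33, 23.89, 24.94, 25.49, 28.05, 29.16 and 35.23 FPKM. In 3 EtOH mice Gjb6 was at or below 20.02, lower than in any Ctrl or EtOH-UA mouse, while the other 4 were between 23.44 and 27.17. The means were 24.4 ± 2.54, 22.7 ± 3.42 and 27.0 ± 4.31 FPKM (SD).

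Gjb6 had the largest difference among the 10 genes, 0.25 ± 0.10 (SE) on the log2 scale for EtOH-UA against EtOH mice (95% interval 0.05 to 0.45, or 1.033 to 1.365-fold), with 6 of 7 EtOH-UA mice above the EtOH median. Its unadjusted limma p was 0.0177, which placed it 128th of 15985 genes, its adjusted p was 0.90, and the exact permutation p was 0.0554. The highest value, 35.23, came from the library with the highest summed FPKM, and without that mouse the difference was 0.18 with an exact permutation p of 0.110. With the transcript-length slope as a covariate it was 0.22, with a limma adjusted p of 0.999. Gja1 was 2.97 ± 0.412 times Gjb6 in EtOH mice and 2.47 ± 0.501 times in EtOH-UA mice, a difference of -0.28 on the log2 scale (exact permutation p = 0.0705; -0.20 without that mouse, exact p = 0.137), and 2.68 ± 0.264 times in Ctrl mice.

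Gfap (gene 14580, chr11:102887336-102897200, minus strand) encodes the intermediate filament protein that marks reactive astrocytes. The 9 Ctrl mice had 85.63 to 119.18 FPKM with a median of 100.7, the 7 EtOH mice 101.42 to 124.94 with a median of 114.42, and the 7 EtOH-UA mice 100.62 to 142.26 with a median of 124.94. Means were 103 ± 12.5, 112 ± 8.99 and 121 ± 15.8 (SD). All 7 EtOH mice stood above the Ctrl median, with a log2 fold change of 0.13 ± 0.08 (SE) and an exact permutation p of 0.109. For EtOH-UA against Ctrl mice the log2 fold change was 0.23 ± 0.08 (95% interval 0.06 to 0.40), with 6 of 7 above the Ctrl median. Its unadjusted limma p was 0.00920 (63rd of 15985 genes), the adjusted p was 0.999 and the exact permutation p was 0.0280. Of the 30 exact tests on the 10 genes this was the only one below 0.05, where 1.5 would be expected with no difference. EtOH-UA and EtOH mice differed by 0.10 ± 0.09 (exact permutation p = 0.267), and by 0.05 (exact p = 0.495) without the EtOH-UA mouse with the highest Gfap.

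The Gfap value of 142.26 came from the library with the highest summed FPKM. Without it the difference between EtOH-UA and Ctrl mice was 0.19 and the exact permutation p was 0.0645, and over all mice left out in turn that p ranged from 0.0132 to 0.0645. With the length slope as a covariate the difference was 0.21, with a limma adjusted p of 0.873. Relative to Aldh1l1 in the same library, Gfap was 7.47 ± 1.22 times as high in Ctrl, 8.13 ± 1.03 times in EtOH and 8.53 ± 0.754 times in EtOH-UA mice (EtOH-UA against Ctrl, 0.20 on the log2 scale, exact permutation p = 0.0557).

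S100b (gene 20203, chr10:76253836-76261319) encodes a calcium-binding protein that astrocytes also secrete. Its lowest, median and highest FPKM were 41.13, 49.2 and 58.47 in Ctrl mice, 42.74, 46.04 and 56.3 in EtOH mice, and 41.09, 51.76 and 58.27 in EtOH-UA mice. Aldh1l1 (gene 107747, chr6:90550768-90599171) encodes a folate enzyme, 10-formyltetrahydrofolate dehydrogenase, and its promoter is widely used to label astrocytes. Ctrl mice had 12.27 to 16.59 FPKM with a median of 13.64, EtOH mice 11.86 to 17.03 with a median of 13.56, and EtOH-UA mice 12.77 to 16.42 with a median of 13.92. Neither gene had an exact permutation p below 0.587 in any comparison. S100b was 3.55 ± 0.311, 3.46 ± 0.353 and 3.52 ± 0.350 times Aldh1l1 in Ctrl, EtOH and EtOH-UA mice.

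As measured, the 10 genes did not vary as one block within groups. Deviations from the group means were correlated over the 23 mice for all 45 pairs, with permutation p-values adjusted over the 45 pairs, and 11 pairs passed an adjusted p of 0.05 by Pearson's r. The highest was Aqp4 with Gja1 (r = 0.821, permutation p = 4e-05, adjusted 0.0009; Spearman's rho = 0.758, permutation p = 0.00011, adjusted 0.00247; r = 0.712 without the 2 mice farthest from the median Aqp4 level). Slc1a2 with Aqp4 came next (r = 0.788, permutation p = 3e-05, adjusted 0.0009; rho = 0.779, permutation p = 9e-05; r = 0.773 without 2 mice). Slc1a3 with Gja1 had r = 0.785 (permutation p = 0.00032, adjusted 0.0048; rho = 0.681, permutation p = 0.00171; r = 0.683 without 2 mice). For Slc1a2 with Kcnj10 r was 0.756 (permutation p = 0.00051, adjusted 0.00574; rho = 0.647, permutation p = 0.00316; r = 0.560 without 2 mice). The pair Aldh1l1 and S100b had r = 0.612 (permutation p = 0.00178, adjusted 0.0114; rho = 0.526, permutation p = 0.0120; r = 0.446 without 2 mice). The remaining 6 pairs were Slc1a2 with Slc1a3 (0.651), Slc1a2 with Gja1 (0.690), Slc1a3 with Aqp4 (0.621), Aqp4 with Kcnj10 (0.616), Glul with Aldh1l1 (0.621) and Glul with Gfap (0.554). Of these, only Slc1a3 with Aqp4 did not pass by Spearman's rho (0.481, adjusted permutation p = 0.0954), and its r was 0.418 without 2 mice. With 1 of the 23 mice left out in turn, this pair passed by r 15 times and Glul with Gfap 9 times. Gja1 and Gjb6, whose products form gap junctions in the same cells, had r = 0.073. Of the 11 pairs, 6 kept an adjusted p under 0.05 whichever mouse was left out. All pairs come from the same 23 libraries and share their composition.

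**Figure D3:**
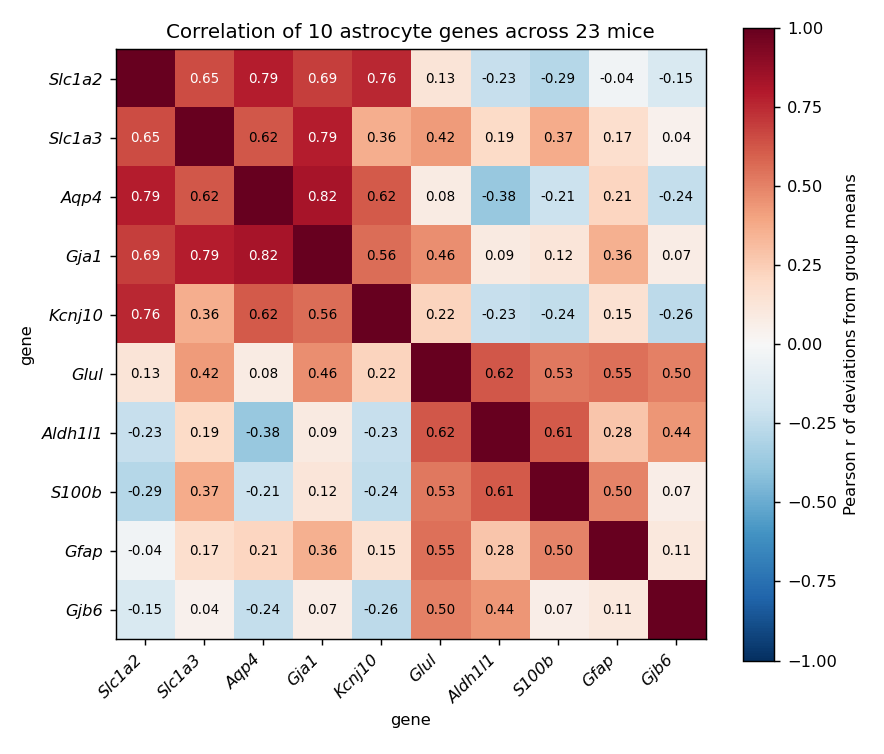
Pearson r between each pair of the 10 genes, over the deviations of 23 mice from their group means on the log2(FPKM + 0.1) scale, coloured from blue (-1) to red (1). The order of the genes was chosen after the values were seen. Slc1a2, Slc1a3, Aqp4, Gja1 and Kcnj10 are correlated at 0.36 to 0.82, and most of them are near or below 0 with Aldh1l1, S100b and Gjb6.

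Part of this pattern moved with a property of the libraries. The slope of expression on transcript length was fitted in each library over 12555 genes that averaged 1 FPKM or more. Slc1a2, with the longest transcript of the 10 genes (11595 bases), followed this slope most closely (r = 0.828, permutation p = 2e-05, adjusted over 10 genes 0.0002; rho = 0.800, permutation p = 3e-05; r = 0.726 without the 2 mice of most extreme slope). S100b, with the shortest transcript (1484 bases), had the most negative r (-0.719, permutation p = 0.0003, adjusted 0.001; rho = -0.601, permutation p = 0.00417; r = -0.636 without 2 mice). Aqp4 (5054 bases) had r = 0.686 (permutation p = 0.00019, adjusted 0.00095; rho = 0.756, permutation p = 0.00011; r = 0.575 without 2 mice). For Kcnj10 (5407 bases, r = 0.647) and Aldh1l1 (4175 bases, r = -0.562) rho did not pass an adjusted p of 0.05 (0.0716 and 0.102), and r fell to 0.374 and -0.281 without the 2 mice, so these relations rested on those libraries. The r was 0.268 for Slc1a3 (4163 bases), 0.390 for Gja1 (3182) and -0.299 for Glul (2792). It was -0.326 for Gfap (2648) and -0.235 for Gjb6 (2105). None of these passed an adjusted permutation p of 0.05. Slc1a3 and Aldh1l1, of nearly equal length, had r of opposite sign.

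With the length slope removed from the deviations, 17 of the 45 pairs passed an adjusted p of 0.05, of which 7 were among the 11 that passed without removal, and 42 of 45 r values were positive, against 35 before. The median r over the 45 pairs was 0.467, against 0.222 before. S100b changed most. Its r with Slc1a2 went from -0.289 to 0.786, with Slc1a3 from 0.373 to 0.846, with Gja1 from 0.120 to 0.626 and with Aqp4 from -0.211 to 0.558. Slc1a2 with Glul went from 0.128 to 0.701. Aqp4 with Gja1 (0.825) and Slc1a3 with Gja1 (0.766) were almost as before, while 4 of the 11 pairs no longer passed: Aqp4 with Kcnj10 went from 0.616 to 0.309 (adjusted p = 0.262), Slc1a2 with Kcnj10 from 0.756 to 0.515 (0.0638), Aldh1l1 with S100b from 0.612 to 0.363 (0.150) and Glul with Gfap from 0.554 to 0.506 (0.0638). Gjb6 had no r above 0.467 with any other of the 10 genes after removal. This setting was chosen after the data were seen. With the slope as a covariate in limma, the SE of Slc1a2 in EtOH against Ctrl mice went from 0.09 to 0.05 and its log2 fold change from 0.04 to -0.01.

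**Figure D4:**
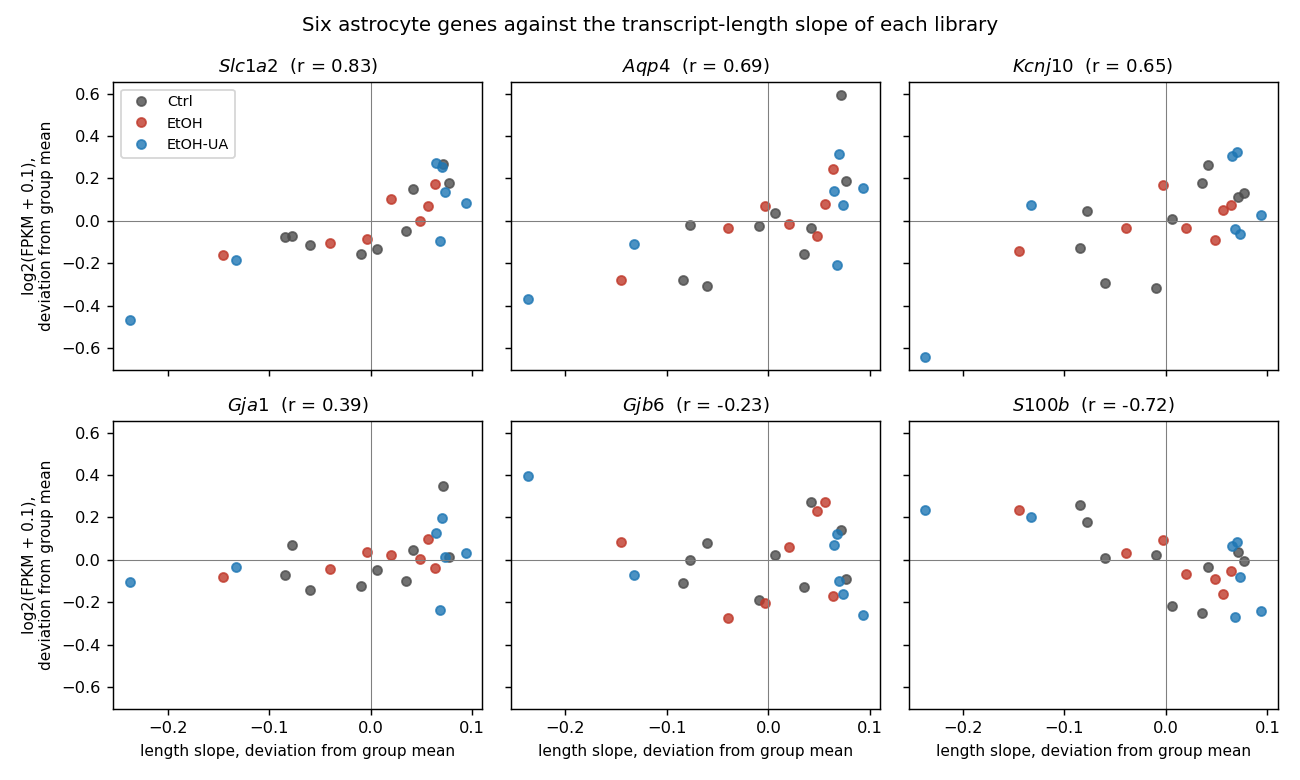
Deviation of 6 of the genes from their group mean (vertical axes, log2(FPKM + 0.1)) against the deviation of the transcript-length slope of the library (horizontal axes, change in log2 expression per doubling of transcript length), with 1 point per mouse coloured by group. Slc1a2, Aqp4 and Kcnj10 lie high where the slope is high (r of 0.83, 0.69 and 0.65), S100b lies low (r of -0.72), and Gjb6 shows little relation (r of -0.23).

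Each of the 10 genes was also set against 12894 other genes that averaged 1 FPKM or more, over deviations in the 23 mice, as a description with no test. Closest to Slc1a2 were Sash1 (r = 0.902) and Slc4a4 (0.888), a bicarbonate transporter. Closest to Slc1a3 were Papss2 (0.853) and Dio2 (0.793), the deiodinase that activates thyroid hormone, and to Glul Mgll (0.856), the lipase that degrades 2-arachidonoylglycerol, and Cdc42ep4 (0.793). Aqp4 had Elovl5 (0.852) and Rhbdd1 (0.846), and Gja1 had Elovl5 too (0.820), with 4931406C07Rik (0.812). Kcnj10 was closest to Padi2 and Megf10, a phagocytic receptor (both 0.908). For S100b the nearest were Asrgl1 and Ppp1r3c, a glycogen-targeting subunit (both 0.896), for Aldh1l1 Pdgfb (0.873) and Ndrg2 (0.849), and for Gfap Tor1b (0.840) and Aldh1a1 (0.829). Gjb6 had the lowest maxima, with Sult1a1 and Ppm1d (both 0.759).

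Other genes of the same pathways were read from lists, none of whose genes passed an adjusted p of 0.05 in limma. Of 13 genes that handle glutamate, glutamine and GABA, 8 were higher and 5 lower in EtOH than in Ctrl mice, 2 of them at an unadjusted limma p under 0.05. For the genes named from the lists, the exact permutation p is given beside this criterion. The 2 were Slc38a5, a glutamine transporter, with means of 1.05, 1.39 and 1.59 FPKM in Ctrl, EtOH and EtOH-UA mice (log2 fold change 0.40, exact permutation p = 0.0129; EtOH-UA against Ctrl 0.58, exact p = 0.00210), and Grm3, a metabotropic glutamate receptor, with means of 8.20, 9.37 and 8.20 FPKM (0.19, exact permutation p = 0.0745). In EtOH-UA against EtOH mice 3 were higher and 10 lower, and Slc6a11, the GABA transporter GAT-3, had means of 31.3 against 35.1 FPKM (-0.17, exact permutation p = 0.0420). In EtOH-UA against Ctrl mice 5 were higher and 8 lower, and Slc6a11 was again lower (-0.16, exact permutation p = 0.0609). Glud1, which oxidises glutamate, had a mean of 96.6 FPKM.

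Of 16 genes for endfeet, water and ion transport, 11, 6 and 7 were higher in EtOH against Ctrl, EtOH-UA against EtOH and EtOH-UA against Ctrl mice, and 0 had an unadjusted p under 0.05 (limma, adjusted count also 0). Without the EtOH-UA library of the highest summed FPKM, 13 of the 16 were higher in the last of these comparisons. Atp1b2, a subunit of the sodium pump, had a mean of 116.1 FPKM. Of 11 connexins, pannexins and their scaffold, 4, 5 and 3 were higher, again with 0 at an unadjusted p under 0.05, and Panx2 (26.2 FPKM) and Tjp1 (19.6 FPKM) were the most abundant. Intermediate filament and S100 genes, 10 in number and led by S100a1 (44.2 FPKM) and S100a16 (34.3 FPKM), had 6, 7 and 4 higher and 0 at that p. Of 10 folate enzymes 5, 4 and 4 were higher, with Tyms, thymidylate synthase, at 2.64 against 2.28 FPKM in EtOH against Ctrl mice (0.21, exact permutation p = 0.0471). Mthfd1 (13.3 FPKM) and Shmt2 (6.84 FPKM) were the most abundant of these enzymes. Among 30 other astrocyte-enriched genes, led by Apoe (1066 FPKM) and Cst3 (948.5 FPKM), 13, 22 and 19 were higher, and 2 had an unadjusted p under 0.05, both in EtOH-UA against Ctrl mice. They were Cbs, a cysteine-synthesis enzyme (13.3 against 11.6 FPKM, 0.19, exact permutation p = 0.0384), and Lcat, which esterifies cholesterol (12.4 against 10.6 FPKM, 0.20, exact p = 0.0823). The 13 transcription regulators of astrocytes, led by Nfix (46.4 FPKM) and Id4 (23.7 FPKM), had 9, 4 and 9 higher, and 12 genes of glycolysis, lactate and glycogen, led by Ldhb (217.0 FPKM) and Gpi1 (186.2 FPKM), had 2, 6 and 5 higher, with 0 at an unadjusted p under 0.05 in either list.

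Reactive astrocyte genes were read beside Gfap. Of 12 pan-reactive genes, 5 were higher for EtOH against Ctrl (median log2 fold change -0.01), 10 for EtOH-UA against EtOH (median 0.20) and 11 for EtOH-UA against Ctrl (median 0.20), while the median of all tested genes was within 0.0033 of 0. Without the EtOH-UA library of the highest summed FPKM, the last 2 counts were again 10 and 11, with medians of 0.14 in both. For EtOH-UA against EtOH, 0 of the 12 had an unadjusted limma p under 0.05. The summed FPKM of the 12 overlapped between groups, at 42.74 to 66.54 in Ctrl, 45.93 to 61.35 in EtOH and 49.5 to 68.62 in EtOH-UA mice. Meningeal genes, none past an unadjusted limma p of 0.05, leaned the same way, with 8 of 8 higher for EtOH-UA against EtOH (median 0.12; 6 of 8 and 0.06 without that library) and a median of 0.20 for EtOH-UA against Ctrl. Their summed FPKM was 189.1 to 919.0 in Ctrl mice, 248.5 to 521.2 in EtOH mice and 249.1 to 624.2 in EtOH-UA mice. Genes of thalamus and septum had a median of 0.19 for EtOH-UA against Ctrl. The part of either in the pan-reactive values was not tested. The most abundant, Serpina3n, a protease inhibitor, had means of 20.2, 19.8 and 22.9 FPKM in Ctrl, EtOH and EtOH-UA mice, and Vim, vimentin, had 16.6, 17.5 and 19.0. In EtOH-UA against Ctrl mice, 2 genes had an unadjusted limma p under 0.05: Lcn2, which encodes lipocalin 2, at 1.36 against 0.406 FPKM (log2 fold change 1.55, exact permutation p = 0.0108), and Cp, ceruloplasmin, at 5.53 against 4.46 FPKM (0.32, exact p = 0.0272). In EtOH against Ctrl mice Cd44, a hyaluronan receptor, was at 1.32 against 0.892 FPKM (0.53, exact permutation p = 0.0138). Below 1 FPKM a gene rests on few fragments. None of these 3 genes passed the adjusted threshold. The 11 genes of the A1 reactive state had 4, 7 and 8 higher and 0 at an unadjusted p under 0.05, with H2-D1 (19.3 FPKM) and Fkbp5 (18.9 FPKM) the most abundant. Of the 12 genes of the A2 state, 10 were high enough to test, led by S100a10 (15.6 FPKM) and Tm4sf1 (6.70 FPKM), and 4, 6 and 5 of these were higher. Emp1, a membrane protein, was at 0.974 against 0.730 FPKM in EtOH-UA against EtOH mice (0.36, exact permutation p = 0.0484).

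**Figure D5:**
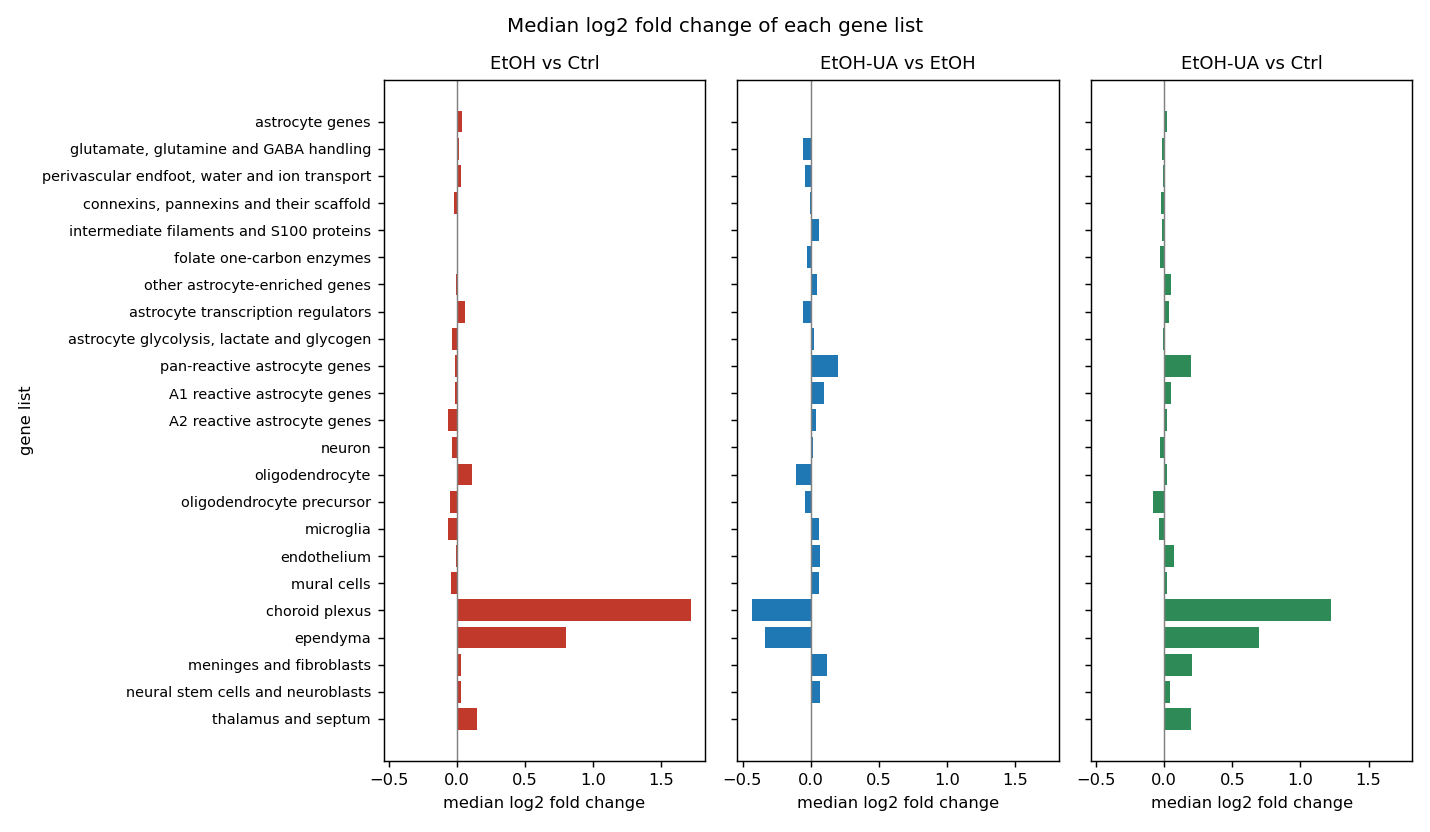
Median log2 fold change (horizontal axis) of the 10 astrocyte genes and of 22 other lists of genes (rows), in panels for the 3 comparisons. Most medians lie near 0; the choroid plexus (1.72, -0.43 and 1.22) and ependyma lists (0.80, -0.34 and 0.69) are the farthest from it, the pan-reactive list has 0.20 in both comparisons of EtOH-UA mice, and the meninges (0.20) and thalamus and septum lists (0.19) lie as far from 0 in EtOH-UA against Ctrl mice.

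Transcripts of the ventricle wall and choroid plexus varied widely between mice. The lowest, median and highest FPKM of Ttr, transthyretin of the choroid plexus, were 3.88, 56.1 and 2913.56 in the Ctrl group, 58.36, 1248.73 and 5628.27 in the EtOH group, and 11.34, 1810.57 and 7704.77 in the EtOH-UA group. Of 10 choroid plexus genes, 10 were higher for EtOH against Ctrl (2 at an unadjusted limma p under 0.05, Clic6 and Otx2), 0 for EtOH-UA against EtOH and 10 for EtOH-UA against Ctrl. Their summed FPKM spanned 9.25 to 2994 among Ctrl mice, 72.8 to 5799 among EtOH mice and 17.6 to 7859 among EtOH-UA mice. Of 8 ependymal genes, all were higher in EtOH than in Ctrl mice, 7 of them at an unadjusted limma p under 0.05, with Rarres2 at 7.21 against 5.42 FPKM (0.40, exact permutation p = 0.00455) and Ccdc153 at 4.34 against 1.96 FPKM (1.38, exact p = 0.00909). In EtOH-UA against EtOH mice 1 was higher and 7 were lower, and in EtOH-UA against Ctrl mice 8 were higher, 2 of them at that p (Rarres2 and Mia). The summed ependymal FPKM was 6.94 to 19.9 in Ctrl, 15.99 to 30.1 in EtOH and 9.29 to 28.3 in EtOH-UA mice. No ependymal or choroid plexus gene passed the adjusted threshold. Ependymal cells also express Gfap, S100b and Aqp4, and the part of these cells in the values of the 10 genes was not tested. The mouse with the highest Ttr, 7704.77 FPKM, was the EtOH-UA mouse with the highest Gfap and Gjb6. Of the other EtOH-UA mice, those with Ttr of 11.34, 45.51 and 70.23 FPKM had Gfap of 124.94, 128.3 and 133.84. Those with Ttr of 1810.57, 1832.4 and 3356.28 FPKM had Gfap of 109.05, 100.62 and 105.29. The EtOH mouse with the highest Ttr, 5628.27 FPKM, had Gfap of 114.42 and Gjb6 of 20.02. A relation of Ttr to these genes was not tested.

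The median log2 fold changes of the remaining marker lists lay between -0.11 and 0.20, although several lists leaned to 1 side. Of 12 neuronal genes, led by Snap25 (1102 FPKM) and Camk2a (851.4 FPKM), 2, 9 and 1 were higher in EtOH against Ctrl, EtOH-UA against EtOH and EtOH-UA against Ctrl mice, with medians of -0.04, 0.02 and -0.03. Of 10 oligodendrocyte genes, among them Mbp (938 FPKM), 10, 1 and 7 were higher, with medians of 0.11, -0.11 and 0.02. The 5 precursor genes, led by Pdgfra (11.5 FPKM) and Gpr17 (7.18 FPKM), had 2, 1 and 0 higher, and the 10 microglial genes, among them C1qa (29.8 FPKM), had 2, 8 and 4 higher. No gene of these 4 lists had an unadjusted limma p under 0.05. Of 8 endothelial genes 1, 6 and 6 were higher, with Ly6c1 at 30.1 against 25.7 FPKM in EtOH-UA against EtOH mice (0.23, exact permutation p = 0.0711) and Slco1a4 (22.4 FPKM) next in level. Of 7 mural cell genes, led by Vtn (30.5 FPKM) and Rgs5 (26.3 FPKM), 2, 4 and 5 were higher. Acta2, smooth muscle actin, had means of 3.59, 3.86 and 4.93 FPKM in Ctrl, EtOH and EtOH-UA mice (EtOH-UA against EtOH 0.33, exact permutation p = 0.0897; against Ctrl 0.42, exact p = 0.0140). The 8 meningeal genes, led by Ptgds (361.5 FPKM) and Dcn (29.7 FPKM), had 5, 8 and 6 higher and 0 at that p. Of 10 stem cell and neuroblast genes, led by Hopx (43.1 FPKM) and Thrsp (22.4 FPKM), 7, 7 and 8 were higher, with Igfbpl1 at 0.453 against 0.171 FPKM in EtOH-UA against Ctrl mice (1.04, exact permutation p = 0.000524) and at 0.321 FPKM in EtOH mice (EtOH against Ctrl 0.56, exact p = 0.0845). Igfbpl1 was named for its small p, its means lay below 1 FPKM, and its limma adjusted p was 0.999 in both comparisons. Of 8 genes of thalamus and septum, led by Calb2 (25.2 FPKM) and Trpc4 (17.5 FPKM), 8, 4 and 6 were higher, with Tcf7l2 at 1.48 against 1.21 FPKM in EtOH-UA against Ctrl mice (0.27, exact permutation p = 0.0170).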

How the data were processed

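The samples were 23 hippocampi, 1 per mouse. The methods of the study describe poly(A)+ RNA sequenced as 100 bp paired reads on a BGISEQ instrument, filtered with SOAPnuke and aligned to mm10 (GRCm38), while total RNA and an MGISEQ instrument stand in the labels. The submitters' processing notes name HISAT2 2.1.0, Bowtie2 2.2.5, RSEM 1.2.8, StringTie and DESeq, with no order. The authors deposited FPKM per gene to 2 decimals, and no read counts were used, so a count test was not run. Reads that match near-identical genes may have been split by the authors' quantification.

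The columns of the table carry mouse numbers and were assigned to groups by their names. Values were transformed as log2(FPKM + 0.1), which understates the change of low genes. A filter kept 15985 genes that averaged 0.1 FPKM or more. limma 3.58.1 (R 4.3.3) was run on the 3 groups together, using eBayes with an intensity trend and Benjamini-Hochberg adjustment across all tested genes. The test code was tested on simulated data. Single genes and within-library ratios were tested by exact permutation, two-sided (11440 splits for comparisons with Ctrl mice, 3432 for EtOH-UA against EtOH). Correlations used 100000 permutations within groups, with scipy 1.17.1. The length slope of a library was taken over the longest protein-coding transcript of each gene in GENCODE M21. The 10 genes and the lists were chosen with earlier results of these data known.

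Named genes were the 10 genes, from each list the 2 most abundant and, in each comparison, up to 2 with the smallest unadjusted p under 0.05, and for each of the 10 genes the 2 genes of most similar pattern. Some genes that this rule would name are not reported here. Alternatives were pseudocounts of 1 and 0.01, no filter or a filter at 1 FPKM, fits of the 2 groups alone, 3 scalings, robust eBayes, array weights and each mouse left out. The length slope as a covariate, and the lists without the EtOH-UA library of the highest summed FPKM, were added after the data were seen.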

Additional observations from a re-analysis of the deposited data

Results flagged for a closer look

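In 3 of 48 groups of values of the 10 genes and 6 ratios, 1 mouse lay far from the others by Dixon's test, where 2.4 would be expected by chance. The gap between the extreme mouse and its neighbour was 0.618 of the range for Glul in EtOH mice, where the highest mouse had 584.02 FPKM against a median of 514.38. That library also had the highest summed FPKM of its group, 366930. For Gja1 in Ctrl mice the gap was 0.572 of the range, with the highest mouse at 82.55 FPKM against a median of 62.69. The same mouse had the highest Slc1a2, Slc1a3, Glul and Aqp4 of the Ctrl group. For Kcnj10 in EtOH-UA mice the gap was 0.598 of the range, with the lowest mouse at 16.17 FPKM against a median of 25.73. This was the library with a summed FPKM of 404609 and a length slope of -0.27.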

How the results depend on the processing

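Of 1020 values of the 30 differences of the 10 genes under alternatives, 959 kept their direction and 61, in 15 differences, did not. None was called (smallest limma adjusted p 0.574). The 959 include values that could not change. Leaving out a mouse outside the 2 groups compared does not alter a difference of their means. Neither does another filter, robust eBayes or a fit of the 2 groups alone. No paired analysis was possible because columns carry mouse numbers and not the replicate numbers of the labels, so a replicate block was not run. The methods of the study describe random assignment to groups, and neither they nor the labels pair mice of equal replicate number. The cause of the changes below was not tested.

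Genes at an unadjusted p under 0.05 numbered 248 with a filter at 1 FPKM, which tests fewer genes, and 1403 with array weights in EtOH against Ctrl, 865 with weights in EtOH-UA against EtOH, and 1067 with weights and 902 with the length slope as a covariate in EtOH-UA against Ctrl. Leaving out 1 mouse gave 315 to 938 in the first and 307 to 1240 in the second comparison. Weights gave 1 called gene in EtOH against Ctrl, and leaving out 1 mouse gave 0 to 1 in each comparison.

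Of the 10 genes, 0 had an exact p under 0.05 in EtOH-UA against Ctrl after quantile normalization (Gfap 0.0743), and leaving out 1 mouse gave 0 to 1 in EtOH against Ctrl (Slc1a3, 0.0418 without the Ctrl mouse with the highest Gja1), 0 to 2 in EtOH-UA against EtOH and 0 to 2 in EtOH-UA against Ctrl. Pairs of genes past the threshold numbered 17 with the length slope removed and 7 to 12 when 1 mouse was left out, with 7 without the EtOH mouse that had the highest Glul.

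Reversed log2 fold changes in EtOH against Ctrl were -0.012 for Slc1a2 and 0.0082 for S100b with the length slope, 0.015 for Glul after rescaling to a common sum and 0.030 after quantile normalization, and -0.012 for Aldh1l1 with weights. In EtOH-UA against EtOH they were, with the length slope, 0.0033 for Slc1a2, 0.098 for Aqp4, -0.030 for Aldh1l1, 0.0012 for Gja1 and -0.029 for S100b, after rescaling -0.028 for Aldh1l1 and -0.0010 for S100b, and with weights 0.050 for Aqp4. In EtOH-UA against Ctrl they were, with weights, 0.053 for Slc1a2, 0.0069 for Slc1a3, -0.0070 for Aldh1l1, 0.029 for Kcnj10 and -0.041 for S100b, after rescaling -0.025 for Gja1 and -0.0096 for S100b, for Gja1 -0.0063 after upper-quartile scaling and -0.015 after quantile normalization, and for S100b -0.021 with the length slope.

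Leaving out 1 mouse gave ranges across 0 in EtOH against Ctrl of -0.039 to 0.0068 for Glul and -0.044 to 0.042 for Aldh1l1, in EtOH-UA against EtOH of -0.060 to 0.054 for Aqp4, -0.015 to 0.072 for Aldh1l1 and -0.065 to 0.0074 for Gja1, and in EtOH-UA against Ctrl of -0.10 to 0.021 for Slc1a2, -0.051 to 0.0062 for Slc1a3, -0.0088 to 0.061 for Aldh1l1, -0.033 to 0.044 for Gja1, -0.11 to 0.050 for Kcnj10 and -0.023 to 0.061 for S100b. Ratios crossed 0 for Slc1a2/Slc1a3 (-0.036 to 0.014 in EtOH against Ctrl, -0.051 to 0.035 in EtOH-UA against EtOH, -0.059 to 0.027 in EtOH-UA against Ctrl), Aqp4/Kcnj10 in EtOH against Ctrl (-0.029 to 0.072) and S100b/Aldh1l1 (-0.0093 to 0.061 in EtOH-UA against EtOH, -0.048 to 0.022 in EtOH-UA against Ctrl).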
